A study of Prunus persica with 21 samples.

Results

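In peach leaves sprayed with an elicitor peptide, 35 genes stood near their starting level at 1 h and above it at 24 h with both peptides. They were chosen on CPM, the count of a gene divided by the total of its library and multiplied by 1000000, as the mean of 3 libraries. A gene was taken when its mean before spraying (t0) was 1 to 800 CPM, when both peptides gave 0.67 to under 1.5 times t0 at 1 h and at least 1.5 times t0 at 24 h, and when all 6 libraries at 24 h lay above all 3 at t0. Of 27107 genes in the table, 15509 had a t0 mean in that range, 13104 of them kept within the limits at 1 h, and 45 of those reached 1.5 times t0 at 24 h with both peptides. The 10 whose 24 h libraries overlapped t0 were left out, which gave the 35. A list of 3 identifiers to be left out by name removed 0 genes, since none of them met the rule.

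The libraries come from leaf blades of juvenile Prunus persica var. Big Top plants, raised in vitro and kept in a glasshouse, with the central vein cut away. PpPep1 was sprayed at 100 nM and PpPep2 at 1000 nM, and leaves were taken 1, 24 and 48 h later. Leaves at t0 had received no peptide, and are called mock in one label and untreated in another. Each of the 7 groups had 3 biological replicates of 9 plants. Because the doses differ, peptide and dose cannot be told apart, and because no unsprayed leaves at 1, 24 or 48 h are in these libraries, time since t0 and treatment cannot be told apart.

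Plant elicitor peptides are short fragments cut from precursor proteins that the plant itself makes. In Arabidopsis they are bound at the cell surface by leucine-rich repeat receptor kinases named PEPR, and binding starts a signalling chain like that set off by molecules of microbes, known as pattern-triggered immunity. Its early part involves calcium influx, reactive oxygen, kinase cascades, hormone signalling such as that of ethylene, and transcription factors within the hour. Its later part involves defence proteins and changes of metabolism and growth. A gene near its starting level at 1 h and above it a day later would be counted with the later part by its timing, and no function is read from timing here.

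Of the 35 genes, 0 carry a name in the deposited table and 0 have a description in the study's supplementary tables. The RefSeq gene list matched 0 of all 27107 identifiers in the table, so it could name no gene here. The 35 are therefore given by identifier and no role is stated. All 35 are annotated as protein coding. Descriptions covered only 847 genes of the table and 0 of the 35. The 12 keyword lists of defence, cell wall, hormone, clock, redox and tissue genes search descriptions, so none of the 35 could fall in them. The lists of clock, of cell cycle and chromatin, and of leaf mesophyll genes each held 0 described genes. The labelled tissue could therefore not be checked against its mesophyll markers.

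The column headings of the table were compared with the study's own sequencing statistics, which list read pairs for every library and how many genes take up 25% of them. For 12 columns, those headed t0, PpPep2 48 h and PpPep1 1 or 24 h, the heading fitted these statistics. In 9 columns it did not, and each of the 9 matched exactly 1 other library, with column totals of 0.963 to 0.982 times the read pairs over all 21 columns. Among the 12, 3 columns also fitted 1 other library besides the one they are headed by, and kept their heading. Here columns headed PpPep1 48 h are read as PpPep2 1 h, those headed PpPep2 1 h as PpPep2 24 h, and those headed PpPep2 24 h as PpPep1 48 h. With the headings taken as they stand the same rule gave 23 genes, of which 0 are among the 35. Using only columns whose heading fitted, thus PpPep1 and t0 alone, 139 genes met the rule. All 35 were among them by construction, since this only drops the limits on PpPep2. It is therefore no check of the columns read anew. Total counts per library were 33231519 to 59317510, with a median of 43773982, and 20339 to 20980 genes had a count.

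At t0 the 35 genes ranged from 1.09 to 270 CPM, with a median of 7.23, below the median of 16.5 CPM over all genes in the range of the rule. Of these, 12 were under 3 CPM, 19 between 5 and 30, and 4 above 60. The 4 most abundant were PRUPE_1G398000 at 270 ± 46.8 CPM (SD, n = 3), PRUPE_1G053800 at 169 ± 19.4, PRUPE_4G179800 at 121 ± 15.5 and PRUPE_8G158800 at 63.2 ± 0.843. The lowest count of any of the 35 genes in any library was 26, for PRUPE_8G258500, which had counts of 43, 69 and 36 at t0. Together they made up 0.0802 to 0.175% of the counts of a library. By the number in the identifier, which names the chromosome, 11 lay on chromosome 1, or 31.4% against 22.8% of the genes in the range, and 1 on chromosome 6, or 2.86% against 13.8%. In bulk leaf RNA, more cells of a type and more RNA per cell cannot be told apart.

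At 24 h the ratio to t0 ran from 1.5 to 5.42 with PpPep1, with a median of 1.92, and from 1.51 to 6.50 with PpPep2, with a median of 1.86. These ratios chose the genes and are given as a description. With each peptide 13 of the 35 were at 2 times t0 or more, and 7 were so with both. The lack of overlap with t0 that the rule asked for was met by 4.98% of the genes in the range. Among all 15509 genes in the range, 2.02% reached 1.5 times t0 with PpPep1 and 2.45% with PpPep2, while 0.4% and 0.903% reached 2 times. The limit of 1.5 had close neighbours on either side. PRUPE_2G202800, at 1.5002 times t0 with PpPep1, PRUPE_8G158800, at 1.511 times with PpPep2, and PRUPE_5G244800, at 1.530 times with PpPep1, were just inside. PRUPE_1G299500, at 1.498 times with PpPep2, PRUPE_1G513600, at 1.496 times with PpPep1, and PRUPE_5G115000, at 1.495 times with PpPep2, were just outside.

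**Figure D1:**
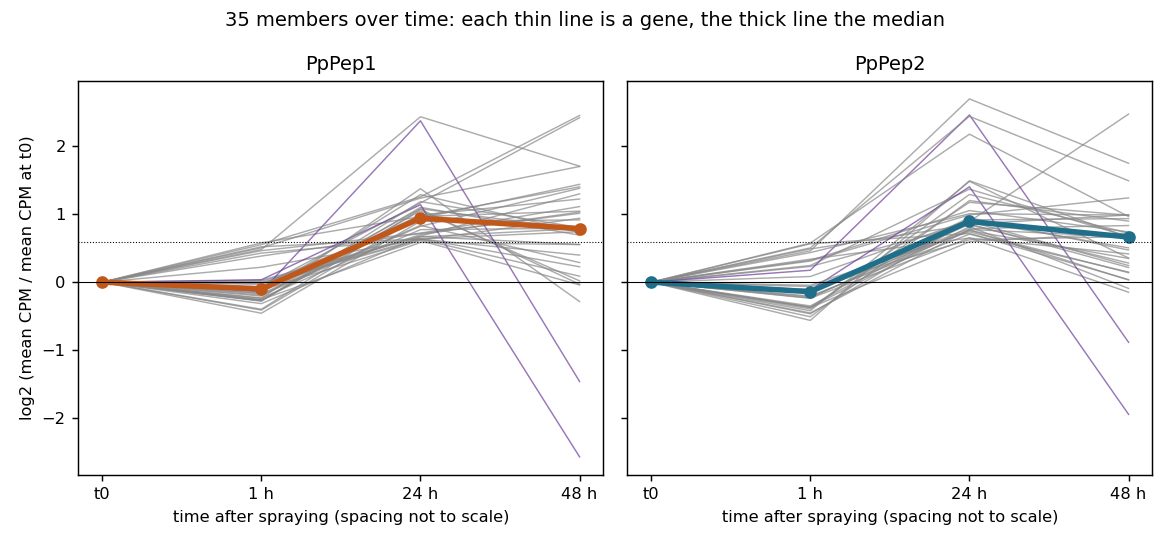
Mean level of each of the 35 genes relative to t0 (log2 of the ratio of mean CPM, vertical axis) at t0, 1, 24 and 48 h (horizontal axis, spacing not to scale) after PpPep1 (left) and PpPep2 (right). Thin lines are genes, the thick line is their median, the dotted line marks 1.5 times t0, and the 2 purple lines are the genes whose 48 h libraries all lay below t0. The lines stay close to t0 at 1 h, as the rule sets, and spread from 0.168 to 5.49 times t0 with PpPep1 and from 0.259 to 5.57 times with PpPep2 at 48 h.

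The identifier with the largest mean ratio at 24 h was PRUPE_4G150100. Its 3 libraries at t0 held 20.2, 17.3 and 12.2 CPM. After 1 h it stood at 16.5, 12.2 and 16.5 CPM with PpPep1 and at 23.1, 16.3 and 16.9 CPM with PpPep2, which overlapped t0. At 24 h it was listed at 113, 76.0 and 69.5 CPM with PpPep1 and at 58.3, 85.5 and 131 CPM with PpPep2. The lowest 24 h library was thus above the highest t0 library by a wide margin with either peptide, and the replicates of PpPep2 differed among themselves more than the means of the peptides did.

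PRUPE_7G243500 followed, with 9.46, 12.1 and 11.6 CPM at t0. Its 24 h values were 81.4, 72.5 and 25.9 CPM with PpPep1 and 52.1, 51.0 and 47.4 CPM with PpPep2. Replicate 3 of PpPep1 stood apart from the other 2 of its group, while the 3 of PpPep2 were close together. Besides these 2, the genes described by identifier below were picked after their values had been seen.

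PRUPE_1G162800 was rare at t0, with 1.33, 1.18 and 1.60 CPM, and had the largest difference between the peptides at 24 h. With PpPep1 the 24 h libraries held 2.19, 2.49 and 3.21 CPM, and with PpPep2 9.14, 10.6 and 6.96 CPM. The peptide groups did not overlap. Over the 35 genes, the 24 h libraries of PpPep2 lay above those of PpPep1 without overlap for 5 (21.3% of genes in the range) and those of PpPep1 above for 1 (3.8%). PRUPE_8G153100 had the same order, with 14.3, 11.6 and 11.5 CPM at t0. Its 24 h values were 21.4, 31.6 and 36.5 CPM with PpPep1 and 44.9, 92.7 and 65.9 CPM with PpPep2, again without overlap.

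At 1 h the levels were bounded by the rule, and within those bounds they were not uniform. Means were below t0 with both peptides for 20 genes, above t0 with both for 10 and on opposite sides for 5. For 7 genes all 6 libraries at 1 h lay below all 3 at t0 (22.3% of all genes in the range did so), and for 3 all 6 lay above (9.76%). These 3 were PRUPE_1G398000, PRUPE_4G179800 and PRUPE_7G243500. Both counts are near the shares over all genes in the range and bounded by the rule, so nothing is read from them. PRUPE_1G398000 had 281, 311 and 219 CPM at t0, and 379, 382 and 402 CPM with PpPep1 and 359, 355 and 311 CPM with PpPep2 at 1 h. At 24 h it stood at 372, 519 and 372 CPM with PpPep1 and at 433, 433 and 406 CPM with PpPep2. Its 24 h values overlapped those at 1 h with PpPep1 and lay above them with PpPep2. In 27 of the 35 genes all 6 libraries at 24 h lay above all 6 at 1 h (13.5% of the genes in the range). The limits that chose the genes favour this separation, so nothing is read from the count.

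Flowcells were not spread evenly over the groups. All 3 libraries of PpPep1 at 24 h were sequenced on a flowcell that held none of t0, while the 3 of PpPep2 at 24 h shared the flowcells of t0. The ratio of PpPep2 at 24 h to t0 is therefore a comparison within flowcells. For PpPep1, 4 libraries taken at 1 h (2 of each peptide) shared its flowcell. Compared with those 4, the 3 libraries of PpPep1 at 24 h lay higher without overlap for 28 of the 35 genes (20.2% of genes in the range), with a median ratio of 2.04 and a range of 1.09 to 5.58. The libraries on both sides were among those the rule used, so these values are a description and no independent check. The 7 that overlapped included PRUPE_4G162000, with a ratio of 1.09, PRUPE_1G086100, with 1.13, and PRUPE_1G398000, with 1.16.

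The spread between replicates is set beside that over all genes in the range as a description, since the t0 and 24 h libraries chose the genes and the genes were less abundant than the range as a whole. The median coefficient of variation (SD as a percentage of the mean) at t0 was 9.67%, against 9.64% for all genes in the range. It was 14.6 against 9.44% with PpPep1 and 17.1 against 7.69% with PpPep2 at 24 h, and 13.8 against 7.89% and 22 against 8.73% at 48 h. The order of the replicates was often shared between genes. Replicate 3 of PpPep2 at 24 h was the highest of its group for 21 of the 35 genes (38.6% of genes in the range) and replicate 1 the lowest for 22 (40.5%). Replicate 3 of PpPep2 at 48 h was the highest for 22 (50.5%) and the lowest for 3 (20.4%). Whether this bears on the differences between the peptides was not tested.

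The libraries at 48 h were not used by the rule, and give the level of these genes a day later. As a group they were above t0, with a median of 1.73 times t0 and a range of 0.168 to 5.49 with PpPep1, and a median of 1.58 and a range of 0.259 to 5.57 with PpPep2. The median over all genes in the range was 0.977 and 0.984. With PpPep1, 23 of 35 were at least 1.5 times t0 (6.83% of genes in the range), with PpPep2 19 (4.89%), and with both 18 (3.96%). At least 2 times t0 was reached by 13 with PpPep1 (1.59%) and by 4 with PpPep2 (1.05%). All 6 libraries at 48 h lay above all 3 at t0 for 17 genes (15.8% of genes in the range), all 6 lay below for 2 (17.4%), and 16 overlapped t0. The t0 libraries are those that chose the genes, and the 48 h libraries were run as another library series on other flowcells, so time and library series cannot be told apart and these counts are a description.

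In edgeR's quasi-likelihood test over 18586 genes, a gene was called when its Benjamini-Hochberg adjusted p was under 0.01 and its log2 fold change (log2FC) was above 1 or below -1. Against t0 the test shares its t0 libraries with the rule, which kept genes for being low at t0 beside 24 h. This favours higher calls, so the counts, log2FC and p-values against t0 given here and below are a description and no independent support. With PpPep1 at 48 h against t0, 15 of the 35 were called (4.52% of all genes tested), 13 higher (2.17%) and 2 lower (2.35%). With PpPep2, 8 were called (2.59%), 7 higher (1.42%) and 1 lower (1.18%). The median log2FC was 0.85 with PpPep1 and 0.70 with PpPep2, against 0.03 over all genes tested with either. All 8 genes called with PpPep2 were also called with PpPep1 in the same direction, 7 genes were called with PpPep1 alone, and 20 with neither. A call with PpPep1 alone does not show that the peptides differ, and the difference itself is given further on. Without the limit on log2FC, 23 genes passed with PpPep1 (26.1% of all genes tested) and 16 with PpPep2 (17.5%).

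**Figure D2:**
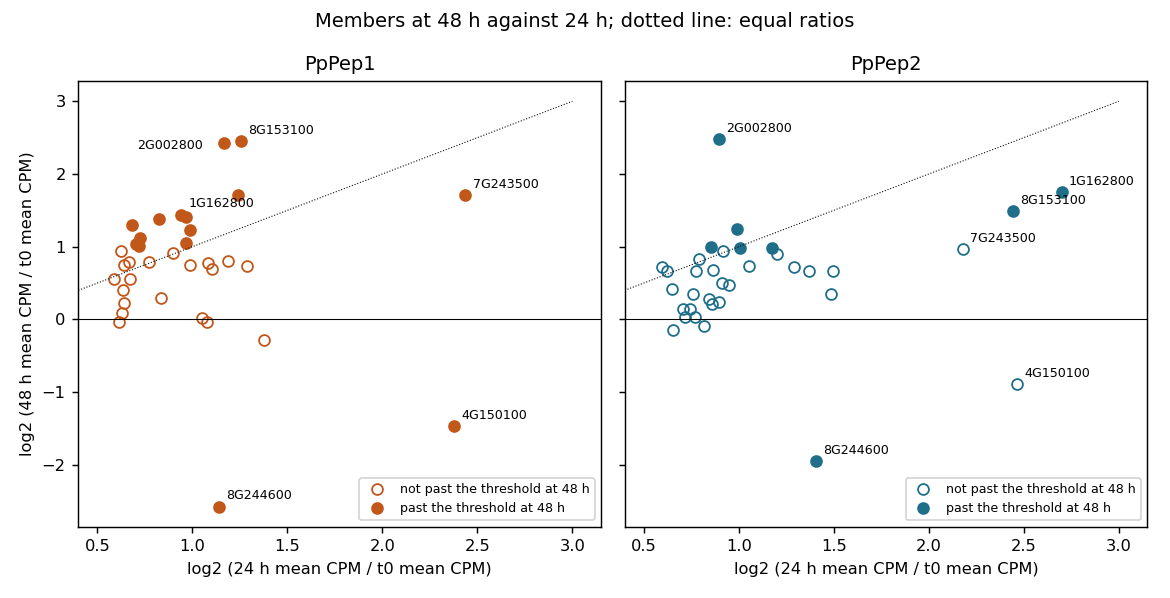
Ratio of the 48 h mean to the t0 mean (log2, vertical axis) against the ratio of the 24 h mean to the t0 mean (log2, horizontal axis) for the 35 genes, PpPep1 on the left and PpPep2 on the right. Filled points passed the edgeR threshold at 48 h against t0 (15 genes with PpPep1, 8 with PpPep2), open points did not, and the dotted line marks equal ratios. Points above the dotted line were higher at 48 h than at 24 h, and PRUPE_8G244600 and PRUPE_4G150100 lie far below it and below t0.

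PRUPE_2G002800 was higher at 48 h than at 24 h with either peptide. It had 7.97, 9.28 and 7.40 CPM at t0, and 14.3, 15.8 and 25.2 CPM with PpPep1 and 15.4, 11.2 and 19.3 CPM with PpPep2 at 24 h. At 48 h it reached 39.6, 45.6 and 47.0 CPM with PpPep1 and 39.6, 40.7 and 56.9 CPM with PpPep2. It was the only gene of the 35 whose 6 libraries at 48 h all lay above all 6 at 24 h (9.88% of genes in the range did so). Against t0 its log2FC at 48 h was 2.47 ± 0.24 (SE) with PpPep1 (edgeR adjusted p = 1.66e-06) and 2.51 ± 0.24 with PpPep2 (edgeR adjusted p = 2.78e-06).

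The other genes called higher with both peptides at 48 h were PRUPE_4G179800, PRUPE_4G045000, PRUPE_6G351100, PRUPE_7G220600, PRUPE_8G153100 and PRUPE_1G162800. PRUPE_4G179800, the most abundant of them, had 134, 104 and 126 CPM at t0, 251, 289 and 247 CPM with PpPep1 and 229, 224 and 268 CPM with PpPep2 at 48 h. Its log2FC was 1.17 ± 0.11 (SE) with PpPep1 and 1.03 ± 0.11 with PpPep2. PRUPE_4G045000 had 4.95, 5.28 and 5.10 CPM at t0, 13.1, 13.8 and 13.7 CPM with PpPep1 and 10.1, 10.9 and 15.3 CPM with PpPep2 at 48 h. In both genes the lowest 48 h library was above the highest at t0. The call of PRUPE_1G162800 with PpPep1 rests on replicate 3, at 6.04 CPM beside 2.22 and 2.9, and without it the log2FC was 0.97 and the call was lost. PRUPE_4G179800, PRUPE_6G351100, PRUPE_7G220600 and PRUPE_8G153100 each lost their call with PpPep2 when a library was left out, with log2FC of 0.81 to 1.61.

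PRUPE_8G158800 and PRUPE_5G165400 are cases just under the limit on log2FC. PRUPE_8G158800 had 62.3, 64.0 and 63.4 CPM at t0, 116, 114 and 98.0 CPM with PpPep1 and 107, 97.1 and 109 CPM with PpPep2 at 48 h. Its log2FC was 0.85 ± 0.10 with PpPep1 (edgeR adjusted p = 2.68e-06) and 0.76 ± 0.10 with PpPep2 (edgeR adjusted p = 1.59e-05). PRUPE_5G165400 had 5.40, 6.23 and 6.30 CPM at t0 and reached 11.6, 11.1 and 11.7 CPM with PpPep1 and 9.33, 12.1 and 10.6 CPM with PpPep2. Both were separate from t0 at 48 h, and at 24 h as the rule asked of every gene, with small spread between replicates.

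PRUPE_8G244600 and PRUPE_4G150100 went the other way and ended below t0. PRUPE_8G244600 had 14.9, 18.6 and 14.2 CPM at t0, and 29.5, 38.6 and 37.0 CPM with PpPep1 and 27.8, 44.4 and 54.0 CPM with PpPep2 at 24 h. At 48 h it was at 2.46, 3.10 and 2.45 CPM with PpPep1 and at 4.39, 3.11 and 4.86 CPM with PpPep2. No library at 48 h came near those at t0, and its counts at 48 h were 88 or more. Against t0 it fell by 2.53 ± 0.23 on the log2 scale with PpPep1 (edgeR adjusted p = 4.23e-07) and by 1.92 ± 0.21 with PpPep2 (edgeR adjusted p = 6.69e-06).

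PRUPE_4G150100, the gene with the largest ratio at 24 h, held 5.22, 6.94 and 5.87 CPM with PpPep1 and 10.2, 5.65 and 11.1 CPM with PpPep2 at 48 h. All 6 lay below the lowest t0 library of 12.2 CPM. Against t0 it fell by 1.41 ± 0.31 on the log2 scale with PpPep1 (edgeR adjusted p = 0.00200, and 1.09e-05 to 0.0107 over 12 alternatives). With PpPep2 the log2FC was -0.86 ± 0.30 (edgeR adjusted p = 0.0391), which was not called. The call with PpPep1 was lost without t0 replicate 1, at a log2FC of -1.28, and without PpPep1 48 h replicate 1, at -1.34.

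**Figure D3:**
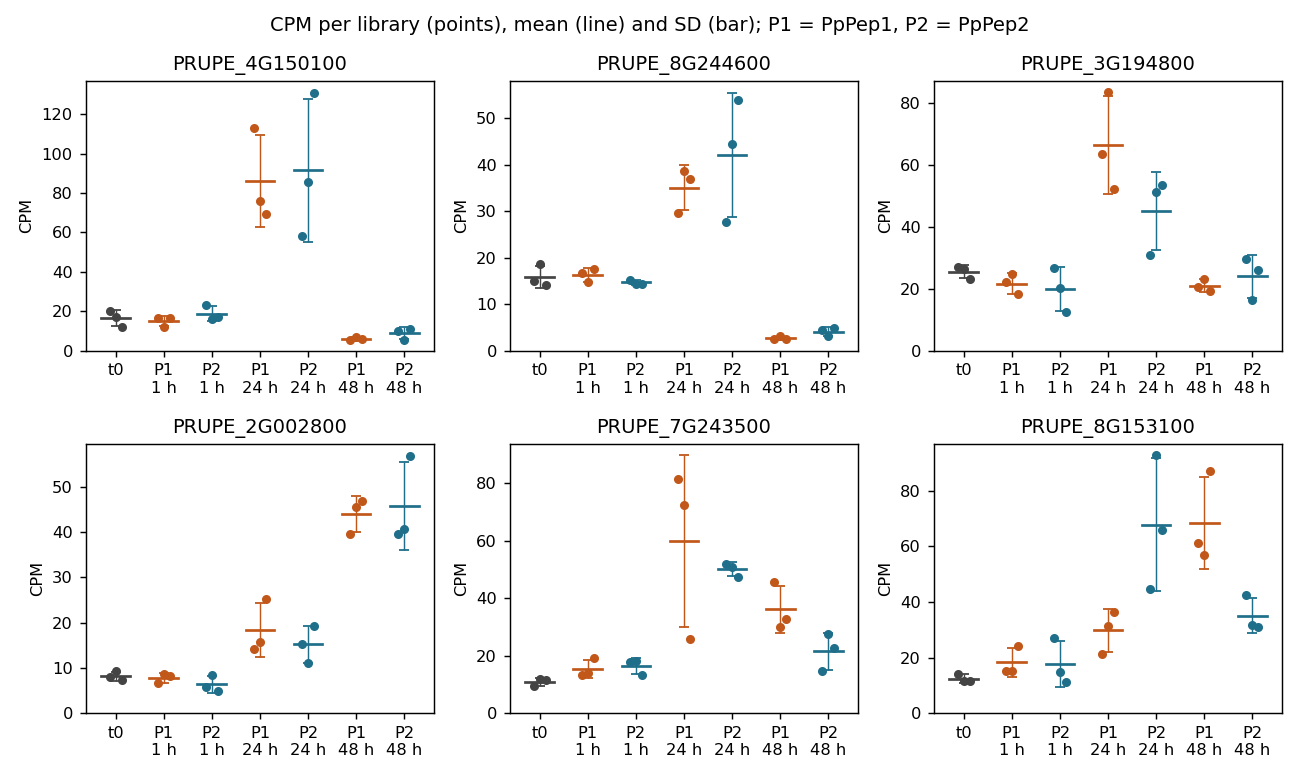
CPM of 6 of the genes in each library (points), with the mean (horizontal line) and SD (bar) of the 3 libraries of a group, in the order t0, then PpPep1 (P1) and PpPep2 (P2) at 1, 24 and 48 h. The upper row shows genes at or below t0 at 48 h (PRUPE_4G150100, PRUPE_8G244600, PRUPE_3G194800) and the lower row genes above it (PRUPE_2G002800, PRUPE_7G243500, PRUPE_8G153100), and all vertical axes start at 0.

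A further set was back near t0 at 48 h. For 7 genes the 48 h mean was no more than 1.25-fold from t0 in either direction with both peptides. They were PRUPE_1G267300, PRUPE_1G306300, PRUPE_3G194800, PRUPE_3G209500, PRUPE_4G162000, PRUPE_5G244800 and PRUPE_7G015000. PRUPE_3G194800 had 27.1, 26.4 and 23.2 CPM at t0 and 63.4, 83.5 and 52.3 CPM with PpPep1 and 30.7, 51.1 and 53.4 CPM with PpPep2 at 24 h. It stood at 20.5, 23.2 and 19.2 CPM with PpPep1 and at 29.7, 16.4 and 25.9 CPM with PpPep2 at 48 h. PRUPE_1G306300 had 10.9, 12.8 and 11.7 CPM at t0, 28.3, 27.4 and 17.6 CPM with PpPep1 and 26.7, 21.0 and 16.3 CPM with PpPep2 at 24 h. Its 48 h values were 12.4, 11.2 and 12.2 CPM and 13.6, 14 and 13.5 CPM in the same order. All 7 of these genes were below 3 times t0 at 24 h with both peptides. So were all others of the 35 except PRUPE_4G150100, PRUPE_7G243500, PRUPE_1G162800 and PRUPE_8G153100, so this does not set the 7 apart. A partly different set of 7 had every 48 h library below every 24 h library over both peptides (7.16% of genes in the range did so), and it included PRUPE_8G244600 and PRUPE_4G150100.

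The step from 24 to 48 h was counted for each peptide on its own. With PpPep1, 10 genes had all 3 libraries at 48 h below all 3 at 24 h (16.3% of genes in the range) and 9 had them above (27%). With PpPep2, 15 had them below (22.9%) and 1 above (16.9%). The median ratio of 48 h to 24 h was 0.978 with PpPep1 and 0.679 with PpPep2. The difference between these 2 changes was tested gene by gene in edgeR, a test added after the values were seen, and 0 of the 35 were called, as were 0 of all 18586 genes. At an unadjusted p under 0.05 in edgeR there were 9 of the 35 (10.3% of all genes tested), and DESeq2 called 1, PRUPE_8G153100 (0.295% of the genes it gave an adjusted p). The 24 h libraries in this contrast chose the genes as high with both peptides, so its values are a description. The 24 h libraries also ran on different flowcells for the 2 peptides, and flowcell and peptide cannot be told apart here.

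In 2 of the 35 genes the libraries at 48 h were apart from those at 24 h in opposite directions with the peptides (0.658% of genes in the range). PRUPE_8G153100 had its 48 h libraries above those at 24 h with PpPep1 and below them with PpPep2. With PpPep1 it went from 21.4, 31.6 and 36.5 CPM at 24 h to 61.2, 56.9 and 87.2 CPM at 48 h. With PpPep2 it went from 44.9, 92.7 and 65.9 CPM to 42.4, 31.9 and 31.0 CPM. Neither pair of times overlapped. The change was larger with PpPep1 by a log2FC of 2.06, with a 95% interval of 1.07 to 3.05 and an edgeR adjusted p of 0.110. PRUPE_4G087100 did likewise at a lower level, from 3.27, 3.16 and 2.73 CPM to 4.30, 3.99 and 4.37 CPM with PpPep1 and from 3.24, 2.86 and 3.93 CPM to 1.47, 2.16 and 2.55 CPM with PpPep2. Its difference was 1.06, with a 95% interval of 0.464 to 1.65 and an edgeR adjusted p of 0.134.

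The peptides can be compared most directly at 48 h, where neither group chose the genes and both ran on the same flowcells. Of the 35 genes, 0 were called between PpPep1 and PpPep2 at 48 h in edgeR (of all genes tested 1 was, or 0.00538%). At an unadjusted p under 0.05 in edgeR there were 9 (10.4% of all genes tested), and DESeq2 called 1, PRUPE_4G087100, which was 1 of 2 genes it called in all (0.0091% of the genes it gave an adjusted p). The mean was higher with PpPep1 for 27 of the 35 on CPM and after TMM scaling alike, against 47.1% of genes in the range on CPM, and the median log2FC was 0.14 against 0.00 over all genes tested. For 5 genes all 3 libraries of PpPep1 lay above all 3 of PpPep2 (6.36% of genes in the range) and for 2 they lay below (10.2%).

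The smallest unadjusted p at 48 h belonged to PRUPE_3G027900. It had 7.23, 6.09 and 7.35 CPM at t0, 12.7, 11.9 and 12 CPM with PpPep1 and 10.2, 13.4 and 14.1 CPM with PpPep2 at 24 h. At 48 h it had 18.8, 18.4 and 16.7 CPM with PpPep1 and 10.8, 8.49 and 13.8 CPM with PpPep2. The groups did not overlap at 48 h and did at 24 h. The log2FC of 0.72, with a 95% interval of 0.440 to 1.00, had an edgeR adjusted p of 0.125 and was not called. For PRUPE_4G087100 the log2FC at 48 h was 1.03, with a 95% interval of 0.602 to 1.45 and an edgeR adjusted p of 0.135. For PRUPE_1G086100, with 2.81, 3.24 and 3.17 CPM against 1.35, 1.79 and 2.41 CPM, it was 0.72, with a 95% interval of 0.319 to 1.13 and an edgeR adjusted p of 0.227. For PRUPE_2G002800, the gene with the highest 48 h level relative to t0 with PpPep2, it was -0.04, with a 95% interval of -0.512 to 0.436.

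**Figure D4:**
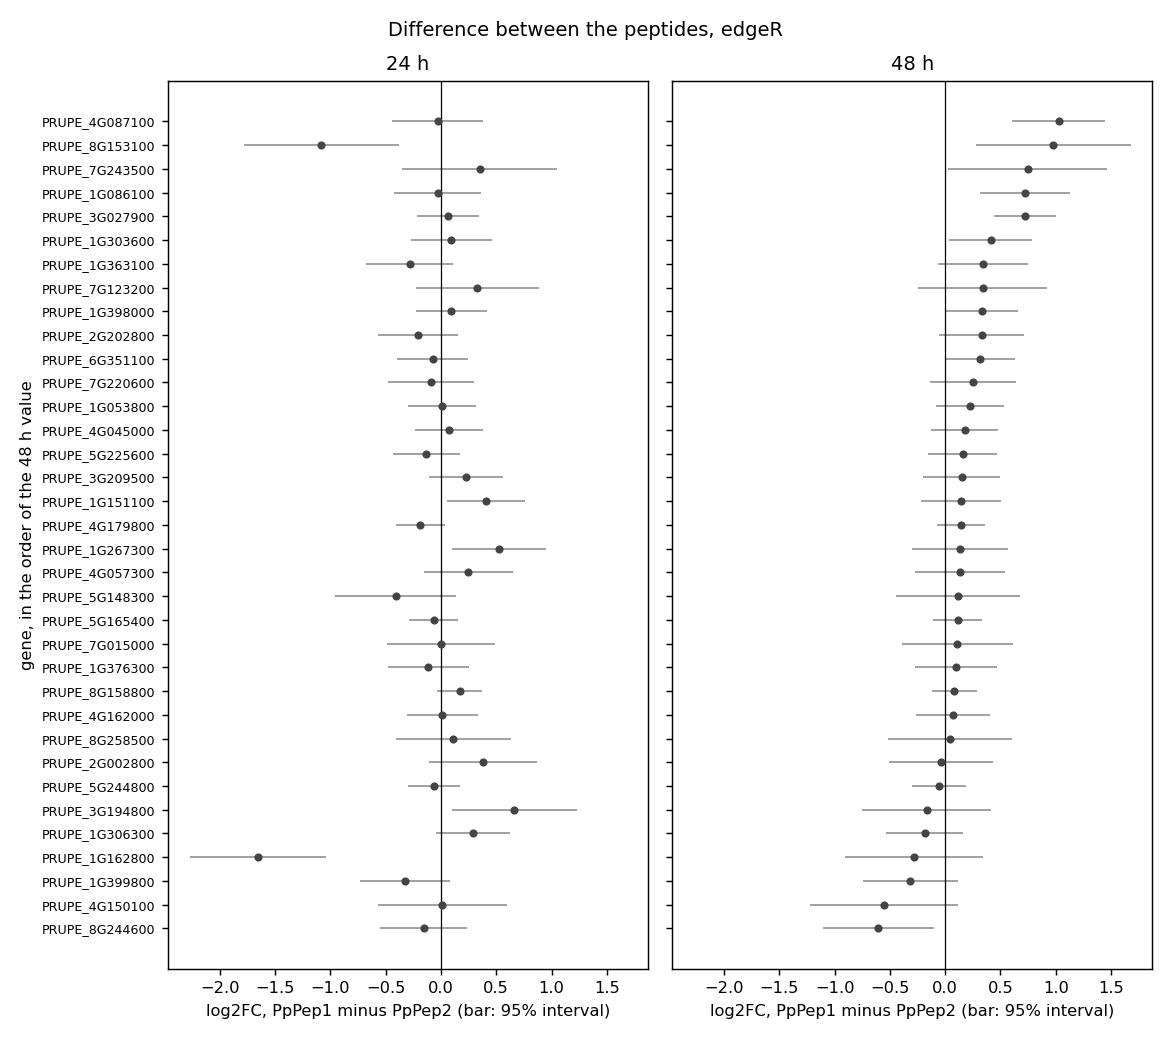
Difference between PpPep1 and PpPep2 (log2FC from edgeR, horizontal axis, with its 95% interval as a bar) for each of the 35 genes (vertical axis, ordered by the value at 48 h) at 24 h on the left and 48 h on the right. A value above 0 is higher with PpPep1. At 48 h 27 of the points lie above 0, and at 24 h PRUPE_1G162800 and PRUPE_8G153100 lie farthest below it, at -1.66 and -1.08.

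At 24 h both groups of libraries had chosen the genes, each by its ratio to t0, so the difference between the peptides is a description there. The same test in edgeR called 0 of the 35 genes (0.0377% of all genes tested were called). At an unadjusted p under 0.05 in edgeR there were 5 (15.3% of all genes tested), and DESeq2 called 1, PRUPE_1G162800 (0.329% of the genes it gave an adjusted p). Its log2FC in edgeR was -1.66, with a 95% interval of -2.27 to -1.04 and an edgeR adjusted p of 0.0164. Over 14 alternatives its adjusted p ran from 3.67e-05 to 0.584. PRUPE_8G153100 followed with -1.08, a 95% interval of -1.78 to -0.382 and an edgeR adjusted p of 0.124. The direction over the set depended on the scaling, since PpPep1 had the higher mean for 10 of the 35 on CPM (26.8% of genes in the range) and for 19 of 35 after TMM scaling, where the median log2FC was 0.01. At 24 h peptide and flowcell cannot be told apart. At 1 h the rule held the mean of either peptide within the same limits, so no comparison between them is drawn. The 95% intervals had a median half-width of 0.39 at 24 and 48 h, which limits how small a difference between the peptides on the log2 scale these libraries could show.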

How the data were processed

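The 21 libraries were stranded poly-A RNA-Seq. The authors aligned read pairs to the Prunus persica NCBIv2 genome with STAR 2.5.3a and deposited expected counts per gene from RSEM 1.3.0, as whole numbers without normalization. How they became whole numbers, and whether the molecular identifiers in the adaptors were used, is not given in the sources used here. The authors' own comparisons, made with DESeq2 1.20.0, were not used, and 0 sample columns were left out. Columns were given to groups as the results describe. Total counts were 33231519 to 59317510 per library.

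CPM were taken on column totals. Tests used R 4.3.3 and edgeR 4.0.16 (robust quasi-likelihood fit, TMM scaling, filterByExpr, 7 groups, Benjamini-Hochberg over 18586 genes), after checks on simulated counts. The SE is the log2FC divided by the square root of F. Intervals (95%) use the same SE. Calls followed the thresholds of the study. Alternatives were DESeq2 1.42.0, RLE scaling, no filter, a filter of 1 CPM in 3 libraries, flowcell as a term, a replicate block, fits of only the compared groups, no limit on log2FC, headings as they stand, and each library left out. The members, lists and tests were chosen with earlier results of these data known. Genes without a name were to be printed for at most 2 identifiers, those with the largest mean log2 ratio at 24 h, and all other identifiers were picked after their values were seen. No genome, promoter or protein sequence was used.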

Additional observations from a re-analysis of the deposited data

Results flagged for a closer look

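In 2 of the 35 genes the 48 h libraries all lay above the 24 h libraries with PpPep1 and all below with PpPep2. Separation in opposite directions with the peptides, either way round, was met by 0.658% of the genes in the t0 range of the rule. For PRUPE_8G153100 the change with PpPep1 exceeded that with PpPep2 by a log2FC of 2.06 ± 0.46 (SE, edgeR adjusted p = 0.110), which did not pass the threshold. For PRUPE_4G087100 it did so by 1.06 ± 0.28 (SE, edgeR adjusted p = 0.134), which did not pass either. The adjusted p over 18 alternatives ran from 0.00702 to 0.249 for PRUPE_8G153100 and from 0.0321 to 0.324 for PRUPE_4G087100. The 24 h libraries in this contrast were among those that chose the genes. The groups have 3 libraries each, too few for a test of single outlying libraries.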

How the results depend on the processing

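Of 114 alternative values, 16 moved a count by more than 1.5 times, or from or to 0. All 114 are counts, so a reversed direction could not appear among them. The rule gave 35 genes. It gave 41 with TMM scaling, of which 28 were among the 35, 7 with a limit of 2 times t0 at 24 h, and 23 with the headings as they stand. A reading added after seeing the data, PpPep1 alone, gave 139. Leaving out 1 library gave 31 to 57 genes, and the 57 came without t0 replicate 3, of which 31 were among the 35. Without a t0 or 24 h library the demand for no overlap is also weaker, so a larger set is in part built in. The size and content of the set therefore depend on the t0 libraries, on scaling and on the limit.

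With the headings as they stand, edgeR called 14 of the 35 between the peptides at 1 h (7.05% of all genes tested), 6 at 24 h (3.59%) and 10 at 48 h (10.5%), 0 with PpPep1 48 h against t0 (6.66%), and 11 for the change from 24 to 48 h (6.63%), in place of 0, 0, 0, 15 and 0. These groups then held libraries that the rule had taken as other times. At 1 h the limits of the rule leave the main 0 without weight. Columns headed PpPep1 48 h are read here as PpPep2 1 h, which the rule held near t0. The 0 against t0 as headed was thus set by the rule. At 1 h and for the change, libraries held near t0 stood against libraries chosen as high, which favours calls. At 24 and 48 h, libraries read here as different times were compared. The counts as headed are therefore no measure of how far the results depend on the headings. DESeq2 called 1 gene between the peptides at 24 h, 1 at 48 h and 1 for the change from 24 to 48 h, in place of 0. At 24 h the libraries of the flowcell fit without its term called 1, PRUPE_1G162800, in a fit added after seeing the data. With the flowcell as a term 0 were called. That term rested on PpPep1 at 1 h, where replicate 1 ran on other flowcells than replicates 2 and 3, so nothing is read from the 0. Over 14 alternatives, these fits included, the log2FC of PRUPE_1G162800 at 24 h ran from -1.83 to -1.50. Without the limit on log2FC, 23 passed with PpPep1 and 16 with PpPep2 at 48 h against t0, in place of 15 and 8. A fit of only the groups compared called 5 with PpPep2 in place of 8, where 3 genes fell just under the limit on log2FC, and only the columns whose headings fitted gave 8. Leaving out 1 library gave 13 to 17 calls with PpPep1 and 6 to 9 with PpPep2 at 48 h against t0, and 0 calls between the peptides at each time.

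With the replicate number as a block, the counts were 15 with PpPep1 and 8 with PpPep2 at 48 h against t0 and 0 between the peptides. The numbers are not taken to pair the samples. Libraries of the same number deviated together with r of -0.126 to 0.182 in 15 pairs, over 0.1 in 3 of them. Of the 15 pairs, 4 correlated best with their own number. Between the peptides at 1 h every pair did so, with r of 0.138, 0.0671 and 0.182.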
